A study of Mus musculus with 15 samples.

Results

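Complement is a cascade of secreted proteins that marks cells and debris for removal. The classical pathway starts when C1q, built from the chains C1qa, C1qb and C1qc, binds its target and leads through C4 and C2 to the cleavage of C3, while factor B (Cfb) drives the alternative pathway that amplifies the cleavage of C3. The small fragments C3a and C5a act on the receptors C3ar1 and C5ar1 of myeloid cells, and the C1 inhibitor (Serping1) restrains the first step. In the brain, microglia are known as the main source of C1q, and C3 and C4b are known to rise in reactive glia.

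The genes described here are C1qa, C1qb, C1qc, C3, C4b, C3ar1, C5ar1, Cfb and Serping1, chosen by name as complement components and receptors. All 9 were in the files, among 46679 genes, and all 9 passed the filter on low counts that left 17481 genes for testing. RNA was sequenced from naïve brain and from end-stage tumors of 4 syngeneic glioblastoma lines in immune competent C57BL/6 mice, with 3 mice in each of the 5 groups. CT2A (p53 wild type) and GL261 (K-ras and p53 mutant) are lines induced with methylcholanthrene, 005 carries activated H-ras and AKT on a p53+/- background, and Mut3 lacks NF1 and p53, with the alleles of CT2A and Mut3 given here in part. Each model is a single line, so the line and its driver mutations cannot be told apart. All 4 lines, Mut3 included, had been infected with a retrovirus that carries GFP and firefly luciferase. Mice aged 6 to 8 weeks were implanted in the right hemisphere, with 500000 cells for Mut3 and 100000 for each other line. The mice were perfused with PBS at the endpoint. The labels give no age and no sham implantation for naïve brain. A tumor sample is bulk tissue, in which more cells of a type and more RNA per cell cannot be told apart.

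Total counts ran from 3105119 to 5161132 in naïve brain and from 5380395 to 13130158 in the tumors, so that 3 counts, the limit that a count of 0 allows, correspond to 0.581 to 0.966 CPM (counts scaled to library size) in naïve brain and to 0.229 to 0.558 CPM in tumors. Some libraries stood apart from their groups. In 005 replicate 3, 17.8% of the counts were mitochondrial against 6.42% and 4.60% in the other 005 tumors, and 5 neuron markers summed to 3238 CPM against 581 and 157 CPM. CT2A replicate 1 had 7.59% mitochondrial counts against 4.29% and 3.48%, and neuron markers at 853 CPM against 143 and 190 CPM. GL261 replicate 2 had 11.3% against 4.33% and 5.88%, and neuron markers at 1788 CPM against 588 and 913 CPM. In 005 replicate 2, 6 myeloid markers (Csf1r, Aif1, Cd68, Fcer1g, Tyrobp and Ptprc) summed to 2866 CPM against 1040 and 860 CPM. Levels are given as CPM after TMM scaling. Calls of higher or lower rest on edgeR's quasi-likelihood test and need a Benjamini-Hochberg adjusted p under 0.05 and a log2 fold change of 1 or more in size.

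The 9 genes lie on 5 chromosomes, all on the minus strand of GRCm38. C1qb (chr4:136880129-136886187), C1qc (chr4:136889804-136893065) and C1qa (chr4:136895917-136898803) are neighbors, and C4b (chr17:34728380-34743882) and Cfb (chr17:34856374-34862518) lie in the same region of chromosome 17, with C2 (chr17:34862604-34898265) beside Cfb. C3 is at chr17:57203970-57228136, C3ar1 at chr6:122847138-122856161, C5ar1 at chr7:16246743-16259540 and Serping1 at chr2:84765387-84775444. RefSeq promoters of GRCm38.p6 were found for 5 of the 9 genes (C1qb, C1qc, C3, C3ar1 and C5ar1). The 250 bases before the start are shown for an initiating chain, for the central component and for a receptor, since these follow different patterns over the tumors.
C1qb, chr4:136886201-136886450, minus strand: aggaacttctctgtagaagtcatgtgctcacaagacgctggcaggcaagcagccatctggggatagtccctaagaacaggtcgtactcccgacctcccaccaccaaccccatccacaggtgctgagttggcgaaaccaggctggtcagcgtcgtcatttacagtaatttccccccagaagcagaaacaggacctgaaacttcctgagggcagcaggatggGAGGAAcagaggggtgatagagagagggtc
C3, chr17:57228137-57228386, minus strand: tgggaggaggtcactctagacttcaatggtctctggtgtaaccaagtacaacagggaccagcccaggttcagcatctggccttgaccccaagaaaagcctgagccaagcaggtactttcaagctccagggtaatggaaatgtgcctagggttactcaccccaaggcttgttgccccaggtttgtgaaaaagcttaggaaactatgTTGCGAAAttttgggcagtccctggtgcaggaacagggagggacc
C3ar1, chr6:122856158-122856407, minus strand: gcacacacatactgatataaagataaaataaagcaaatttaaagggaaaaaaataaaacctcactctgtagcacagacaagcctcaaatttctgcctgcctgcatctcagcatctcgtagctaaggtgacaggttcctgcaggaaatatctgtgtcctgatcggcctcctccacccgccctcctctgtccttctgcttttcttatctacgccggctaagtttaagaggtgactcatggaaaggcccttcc
Capitals mark matches to 3 short motifs searched on both strands, namely GAGGAA (the core of PU.1 sites), TTGCGNAA (C/EBP) and an interferon response motif (GAAA, any 2 bases and GAAA again). C1qb holds GAGGAA 30 bases before the start, and C1qc, not shown, holds its reverse complement 193 bases before the RefSeq start. C3 holds TTGCGAAA 45 bases before the start. Neither C3ar1 nor C5ar1 holds any of the 3 motifs in this window. Over 32851 promoters, GAGGAA was found in 28.3%, TTGCGNAA in 0.798% and the interferon response motif in 3.44%. These shares are for the whole RefSeq promoter sequences, from which the 250 bases shown were taken.

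Against naïve brain, complement genes were higher in tumors, and the number differed by line. All 9 passed the test in GL261 and all 9 in 005, where 14.6% and 11.6% of the tested genes were called higher. In CT2A, 6 of 9 passed (C1qa, C1qb, C1qc, C3ar1, C5ar1 and Cfb) beside 19% of the tested genes. In Mut3, 2 of 9 passed (C4b and C3ar1) beside 17.9%, so that the share of complement genes called there was near the background. None of the 9 was called lower in CT2A, GL261, 005 or Mut3, beside 20.2%, 7.77%, 1.05% and 19.8% of the tested genes. The 9 genes had a median log2 fold change of 0.95 in Mut3, 1.67 in CT2A, 2.78 in 005 and 3.25 in GL261, where the medians of all tested genes were 0.11, −0.04, 0.01 and −0.08. The lowest tumor exceeded the highest naïve brain for 9 genes in both GL261 and 005, beside 23.7% and 16.8% of the tested genes, for 8 genes in CT2A beside 27.7%, and for 3 genes in Mut3 beside 27.5%. An F test among the 5 groups gave an adjusted p under the threshold for 9 of 9 genes, with the highest at 0.00202 for C1qa, beside 52.1% of the tested genes. Fitted on the 005 and naïve libraries alone, the test called 2 of the 9 genes in 005 (C3ar1 and Cfb), with larger fold changes than in the fit on all the samples. That fit called 1.48% of its 14993 tested genes in either direction, against 12.7% in the fit on all the samples. Fold changes over naïve brain on log2(TPM + 1) were shifted relative to the TMM scale. The shift, a median over genes with a mean log2 CPM above 3, was −0.53 in 005 and −0.67 in GL261. It was −0.70 in Mut3 and −0.82 in CT2A. On log2(TPM + 1), 1 of 9 passed in CT2A (Cfb) and 1 in Mut3 (C4b). In 005 7 passed (all but C4b and C3ar1), and in GL261 9 did. In 005 on that scale C4b was at 0.95 (limma adjusted p = 0.146), and C3ar1 was under the threshold on p, with a log2 fold change just under 1. In naïve brain C3ar1 and C5ar1 lay at 0.163 to 0.567 TPM, under the pseudocount of 1, which shrinks fold changes of such low values.

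**Figure D1:**
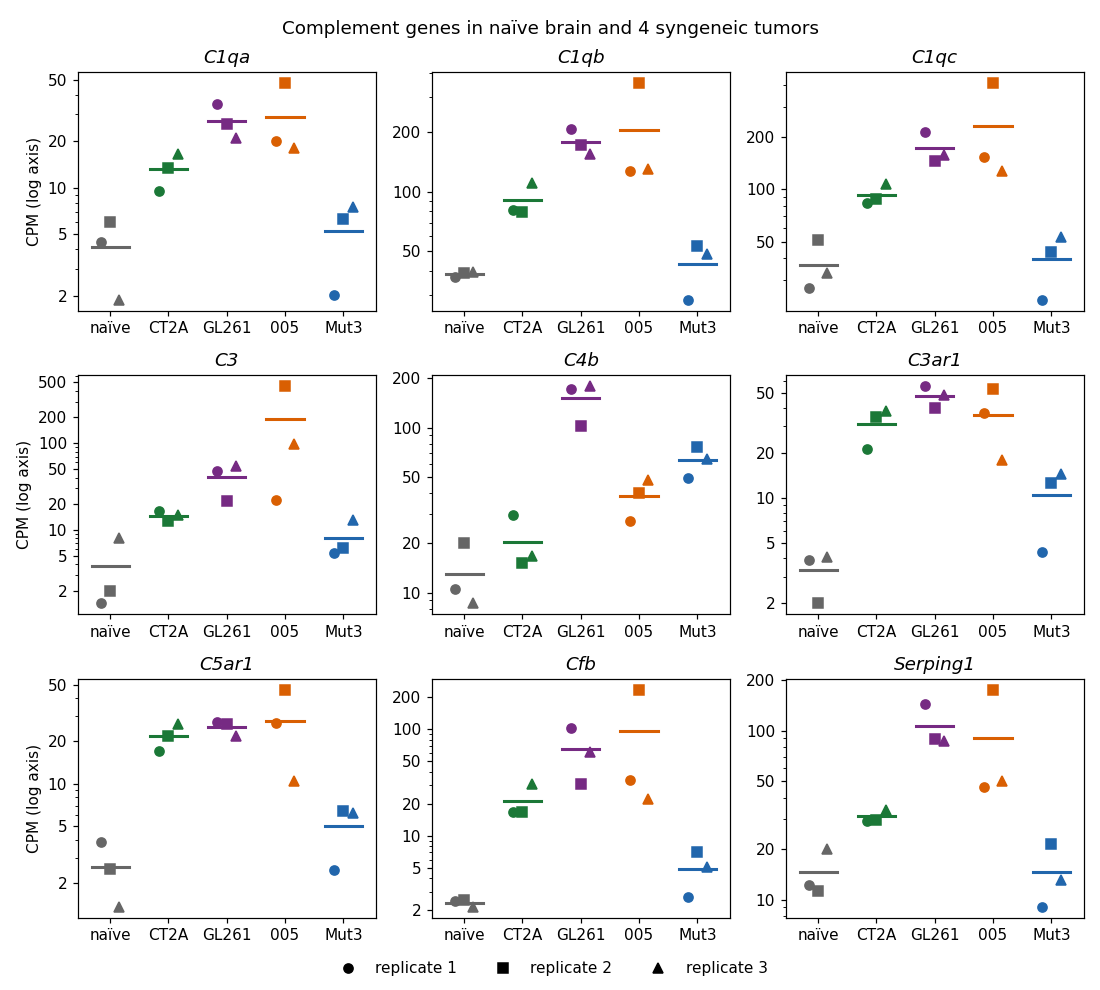
CPM of each complement gene (log axis) in every sample, with symbols for replicates and bars for group means. GL261 and 005 carry the highest levels of most genes, Mut3 stands near naïve brain for C1q and Serping1, and C4b alone is higher in Mut3 than in CT2A.

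**Figure D2:**
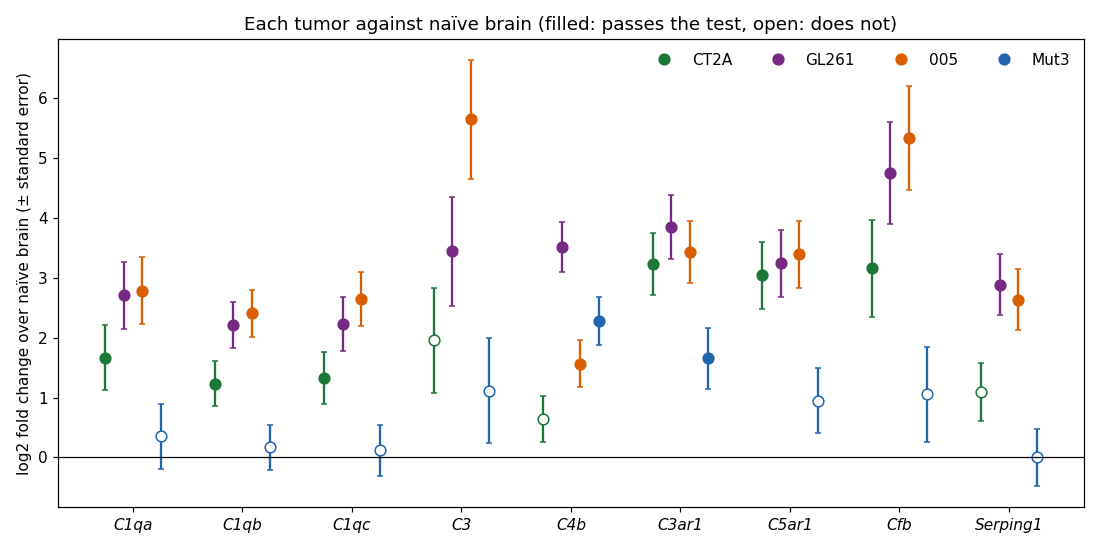
Log2 fold change over naïve brain with its standard error for each gene and tumor, filled where the test was passed. In Mut3 only C4b (2.28) and C3ar1 (1.65) are filled, while in GL261 and 005 all genes are.

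The C1q chains, which form the recognition part of C1, rose in CT2A, GL261 and 005. C1qb was at 37.1, 39.1 and 39.2 CPM in naïve brain, at 81.3, 79.0 and 111 CPM in CT2A, at 208, 172 and 156 CPM in GL261, at 128, 356 and 131 CPM in 005, and at 28.5, 53.2 and 48.3 CPM in Mut3. The CT2A, GL261 and 005 samples were all above naïve brain, and the Mut3 samples lay on both sides of it. Over naïve brain, the log2 fold change of C1qb was 1.23 ± 0.38 (standard error, adjusted p = 0.0186) in CT2A, 2.22 ± 0.39 (adjusted p = 0.00165) in GL261 and 2.41 ± 0.39 (adjusted p = 0.00204) in 005. C1qc had values of 26.9, 50.8 and 33.0 CPM in naïve brain, 83.3, 88.2 and 107 CPM in CT2A, 215, 147 and 157 CPM in GL261, 153, 413 and 129 CPM in 005, and 23.2, 43.7 and 53.1 CPM in Mut3. Its log2 fold changes were 1.33 in CT2A, 2.23 in GL261 and 2.65 in 005. C1qa had the lowest level of the chains, at 1.89 to 5.98 CPM in naïve brain, 9.53 to 16.7 CPM in CT2A, 21.0 to 34.6 CPM in GL261, 18.2 to 47.8 CPM in 005 and 2.01 to 7.56 CPM in Mut3, and its log2 fold changes of 1.67, 2.71 and 2.78 passed in the same tumors. In Mut3 the fold changes of C1qa, C1qb and C1qc were 0.36 ± 0.54, 0.17 ± 0.37 and 0.12 ± 0.43 and did not pass. They turned to −0.37, −0.66 and −0.70 on log2(TPM + 1). On that scale the median shift of fold changes in Mut3 was −0.70 over the more highly expressed genes.

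The fold changes in CT2A were the smallest of those called for C1q, and single libraries decided their calls. Without naïve brain replicate 1, C1qa was at 1.74 (edgeR adjusted p = 0.0586), C1qb at 1.22 (adjusted p = 0.0551) and C1qc at 1.16 (adjusted p = 0.0904). Leaving out naïve brain replicate 3 gave 1.34 (adjusted p = 0.0883) for C1qa and 1.27 (adjusted p = 0.0697) for C1qc. Without CT2A replicate 3, C1qa, C1qb and C1qc were at 1.47, 1.07 and 1.23, with adjusted p of 0.0824, 0.0727 and 0.0750. The C1q calls in GL261 and 005 were kept without any single library, and without 005 replicate 2, the highest, the fold changes in 005 were 2.21 for C1qa, 1.75 for C1qb and 1.94 for C1qc.

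Per transcript length, C1qb and C1qc stood at nearly the same level in every group. The ratio of C1qc to C1qb in TPM was 0.96 ± 0.31 (SD, n = 3) in naïve brain, 0.92 ± 0.17 in Mut3, 1.05 ± 0.08 in CT2A, 0.98 ± 0.10 in GL261 and 1.13 ± 0.12 in 005, with a range over the 15 samples of 0.730 to 1.31. C1qb exceeded C1qa in TPM in all 15 samples, by 5.12 to 18.0 times with a median of 6.18. The widest ratios of C1qb to C1qa were in naïve brain, where C1qa had 6.94 to 24.2 estimated counts.

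C4b, one of the C4 genes of the mouse and the substrate of C1, had a different order of levels from the other complement genes. It was at 10.6, 19.9 and 8.65 CPM in naïve brain, at 29.6, 15.1 and 16.7 CPM in CT2A, at 171, 102 and 178 CPM in GL261, at 27.2, 40.4 and 48.3 CPM in 005, and at 49.8, 76.6 and 64.5 CPM in Mut3. GL261 was above all the other groups, Mut3 came next, and CT2A overlapped naïve brain. Over naïve brain the log2 fold change was 3.52 ± 0.42 (adjusted p = 0.000147) in GL261, 2.28 ± 0.40 (adjusted p = 0.000863) in Mut3 and 1.57 ± 0.39 (adjusted p = 0.0170) in 005. CT2A was at 0.65 ± 0.39 (adjusted p = 0.190), a value that turned to −0.28 on the TPM scale with a pseudocount of 1. The call in 005 was lost without naïve brain replicate 1 (1.44, adjusted p = 0.0804), naïve brain replicate 3 (1.35, adjusted p = 0.0711) or 005 replicate 2 (1.54, adjusted p = 0.0520), and CT2A passed without naïve brain replicate 2 (1.29, adjusted p = 0.0263).

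Between tumors, C4b was the one complement gene lower in CT2A than in Mut3, by a log2 fold change of −1.64 ± 0.38 (adjusted p = 0.0117). The log2 fold change of CT2A over GL261 was −2.88 ± 0.40 (adjusted p = 0.000759), and GL261 was higher than 005 by 1.96 ± 0.39 (adjusted p = 0.0135) and than Mut3 by 1.24 ± 0.38 (adjusted p = 0.0357). The difference between 005 and Mut3 (−0.72 ± 0.38, adjusted p = 0.189) did not pass. Of these, the difference between CT2A and GL261 was called without any single library. The difference from Mut3 in CT2A was lost without CT2A replicate 2 (−1.36, adjusted p = 0.0748) or replicate 3 (−1.50, adjusted p = 0.0594), and that between GL261 and 005 without GL261 replicate 3 (1.78, adjusted p = 0.0691) or 005 replicate 1 (1.75, adjusted p = 0.0760). Leaving out GL261 replicate 1 or 3 or any Mut3 replicate ended the call between GL261 and Mut3, with values of 1.03 to 1.39 and adjusted p of 0.0616 to 0.128.

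C4b and its near copy C4a (chr17:34809092-34823464) share 96.0% of 5445 aligned bases in their longest transcripts, so the split of reads between them is uncertain. C4a was listed at 0 in all naïve brains and reached 0.258 to 1.09 CPM in CT2A, 0.162 to 2.06 CPM in GL261, 0.309 to 1.33 CPM in 005 and 0.224 to 1.64 CPM in Mut3, far below C4b in every tumor. Per length, the ratio of C4b to C1qb in TPM was 0.38 ± 0.17 (SD, n = 3) in naïve brain, 1.71 ± 0.24 in Mut3, 0.97 ± 0.31 in GL261, 0.27 ± 0.13 in CT2A and 0.26 ± 0.15 in 005. The lowest Mut3 ratio, 1.52, was above the highest of any other group, 1.29 in GL261.

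C3, on which all the pathways converge, had its highest mean level in 005, with a wide spread between mice. It was at 1.43, 1.99 and 8.11 CPM in naïve brain, at 16.6, 12.6 and 14.7 CPM in CT2A, at 47.9, 21.7 and 53.9 CPM in GL261, at 21.8, 451 and 97.4 CPM in 005, and at 5.48, 6.17 and 12.8 CPM in Mut3. All 005 and GL261 samples were above naïve brain, while 005 replicate 1 was level with the lowest GL261 sample. Naïve brain rested on 7.30, 7.67 and 29.7 estimated counts. The log2 fold change over naïve brain was 5.65 ± 0.99 (adjusted p = 0.00265) in 005 and 3.44 ± 0.91 (adjusted p = 0.0167) in GL261, and without 005 replicate 2 it was 3.99 in 005. In CT2A it was 1.95 ± 0.88 (adjusted p = 0.0875) and in Mut3 1.12 ± 0.87 (adjusted p = 0.324). The call in GL261 was lost without naïve brain replicate 1 (3.03, adjusted p = 0.0676), naïve brain replicate 2 (3.28, adjusted p = 0.0576) or GL261 replicate 3 (3.12, adjusted p = 0.0502), and CT2A passed without naïve brain replicate 3 (3.11, adjusted p = 0.0357), the highest of the naïve brains.

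Of the pairs of tumors, C3 was lower in CT2A than in 005 by a log2 fold change of −3.70 ± 0.88 (adjusted p = 0.0323) and higher in 005 than in Mut3 by 4.53 ± 0.91 (adjusted p = 0.00500). The first was lost without any single CT2A replicate (−3.55 to −3.80, adjusted p of 0.0652 to 0.146) and without 005 replicate 2 (−2.02, adjusted p = 0.0933). The second was kept without any single library and was 2.86 at its lowest. GL261 and Mut3 differed by 2.33 ± 0.84 (adjusted p = 0.0668) and GL261 and 005 by −2.21 ± 0.82 (adjusted p = 0.206).

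Cfb, the protease of the alternative pathway, had the largest log2 fold change of the 9 genes in GL261, at 4.76 ± 0.85 (adjusted p = 0.00189). It was at 2.45, 2.49 and 2.16 CPM in naïve brain, at 16.6, 16.9 and 30.5 CPM in CT2A, at 102, 30.5 and 61.1 CPM in GL261, at 33.7, 233 and 22.1 CPM in 005, and at 2.69, 7.05 and 5.10 CPM in Mut3. The naïve brains differed little among themselves and every tumor sample was above them. The log2 fold change was 3.16 ± 0.81 (adjusted p = 0.00810) in CT2A, 5.33 ± 0.87 (adjusted p = 0.00204) in 005 and 1.05 ± 0.80 (adjusted p = 0.311) in Mut3. Without 005 replicate 2 it was 3.55 in 005 and still called. A readthrough gene, Gm20547 (chr17:34856412-34882042), overlaps Cfb and C2 on the same strand and was listed at 0 in all 15 samples.

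The anaphylatoxin receptors rose in CT2A to nearly the level of GL261 and 005. C3ar1 was at 3.88, 1.99 and 4.06 CPM in naïve brain, at 21.1, 34.9 and 38.1 CPM in CT2A, at 55.5, 40.1 and 48.5 CPM in GL261, at 36.8, 53.2 and 18.0 CPM in 005, and at 4.36, 12.6 and 14.4 CPM in Mut3. It was the one gene besides C4b called in all of GL261 (3.85 ± 0.53, adjusted p = 0.000420), 005 (3.43 ± 0.52, adjusted p = 0.00185) and Mut3 (1.65 ± 0.50, adjusted p = 0.0177), and it was called in CT2A as well (3.24 ± 0.52, adjusted p = 0.000714). The call in Mut3 was lost without naïve brain replicate 2 (1.59, adjusted p = 0.0510), Mut3 replicate 2 (1.51, adjusted p = 0.0517) or Mut3 replicate 3 (1.32, adjusted p = 0.0760). C5ar1 was at 3.88, 2.49 and 1.35 CPM in naïve brain, at 17.1, 21.6 and 26.4 CPM in CT2A, at 27.2, 26.2 and 21.6 CPM in GL261, at 26.7, 45.9 and 10.5 CPM in 005, and at 2.46, 6.42 and 6.24 CPM in Mut3. All CT2A, GL261 and 005 samples were above all naïve and Mut3 samples. The log2 fold change of C5ar1 was 3.05 ± 0.56 (adjusted p = 0.00150) in CT2A, 3.25 ± 0.56 (adjusted p = 0.00149) in GL261, 3.39 ± 0.56 (adjusted p = 0.00211) in 005 and 0.95 ± 0.54 (adjusted p = 0.179) in Mut3.

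Both receptors were higher in CT2A than in Mut3, where C1q did not pass the same test. The log2 fold change between CT2A and Mut3 was 1.58 ± 0.47 (adjusted p = 0.0379) for C3ar1 and 2.10 ± 0.51 (adjusted p = 0.0146) for C5ar1, against 1.06 ± 0.38 (adjusted p = 0.0753) for C1qb, and the difference between genes was not tested. The call for C3ar1 was lost without CT2A replicate 2 (1.58, adjusted p = 0.0887), CT2A replicate 3 (1.42, adjusted p = 0.117), Mut3 replicate 1 (1.28, adjusted p = 0.117) or Mut3 replicate 2 (1.73, adjusted p = 0.0745). That for C5ar1 was lost without CT2A replicate 3 (1.94, adjusted p = 0.0531) or Mut3 replicate 1 (1.84, adjusted p = 0.0609).

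Serping1, the inhibitor of C1r and C1s, rose in GL261 and 005 and stood in Mut3 at the mean level of naïve brain. It was at 12.2, 11.2 and 20.0 CPM in naïve brain, at 29.3, 29.7 and 34.1 CPM in CT2A, at 144, 89.5 and 87.2 CPM in GL261, at 46.4, 174 and 50.4 CPM in 005, and at 9.06, 21.3 and 13.1 CPM in Mut3. GL261 and 005 samples were all above CT2A, and Mut3 overlapped naïve brain. The log2 fold change over naïve brain was 2.88 ± 0.51 (adjusted p = 0.00170) in GL261, 2.64 ± 0.51 (adjusted p = 0.00408) in 005, 1.10 ± 0.49 (adjusted p = 0.0812) in CT2A and 0.00 ± 0.48 in Mut3. CT2A was lower than GL261 by −1.78 ± 0.48 (adjusted p = 0.0360), a call that was lost on leaving out any of the CT2A or GL261 replicates (−1.54 to −1.89, adjusted p of 0.0649 to 0.120).

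Between the tumors, the clearest contrast was that of GL261 and 005 with Mut3. GL261 exceeded Mut3 in 8 of 9 genes, all but C3, beside 11.1% of the tested genes, and 005 exceeded Mut3 in 8 of 9, all but C4b, beside 14% of the tested genes. The largest of these log2 fold changes were those of C3 (4.53) and Cfb (4.28) in 005 and of Cfb (3.71) and Serping1 (2.88) in GL261. The C3ar1 difference between 005 and Mut3 (1.78) was lost without 005 replicate 2 (1.39, adjusted p = 0.0613) or Mut3 replicate 1 (1.46, adjusted p = 0.0606). GL261 and 005 differed in 1 gene, C4b, beside 1.73% of the tested genes called higher in GL261, and the C1q chains differed there by −0.08 ± 0.51, −0.19 ± 0.37 and −0.42 ± 0.43, intervals that leave room for differences of either sign. CT2A was lower than GL261 in 2 genes (C4b and Serping1) beside 3.62%, and lower than 005 in 1 gene (C3) beside 1.99%. Without 005 replicate 3 the latter count was 5 (C1qb, C1qc, C3, Cfb and Serping1), and without 005 replicate 2 it was 0. CT2A exceeded Mut3 in 2 genes (C3ar1 and C5ar1) beside 6.61% and was lower in 1 (C4b) beside 6.15%.

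**Figure D3:**
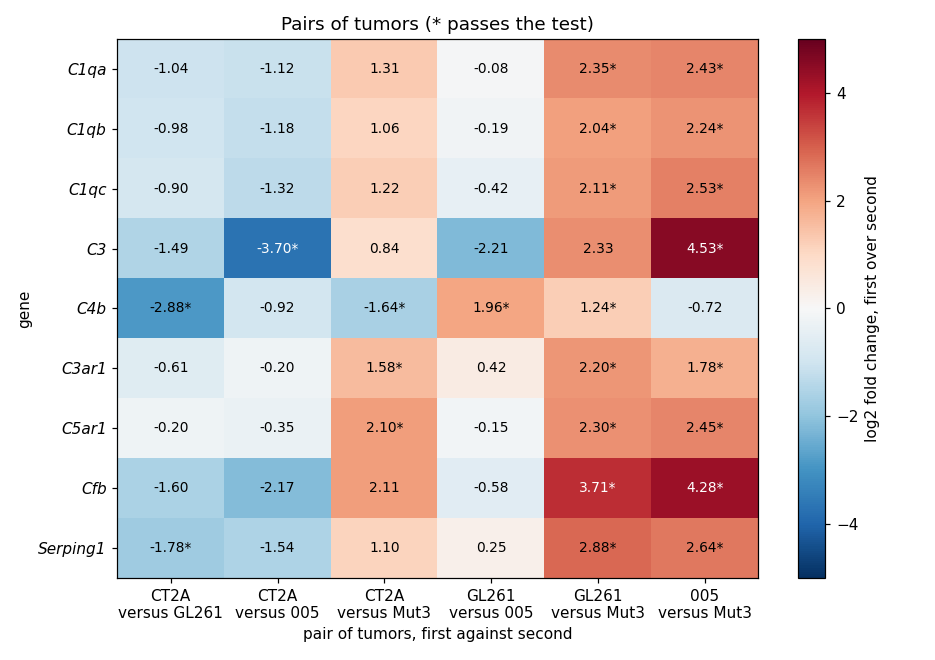
Log2 fold changes of the 9 genes in the 6 pairs of tumors, first against second, with an asterisk where the test was passed. The columns against Mut3 are positive for GL261 and for all genes but C4b in 005, and the row of C4b has its own pattern of signs.

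In the order of mean levels, 005, GL261, CT2A, Mut3 and naïve brain followed each other for C1qa, C1qb, C1qc, C3, C5ar1 and Cfb. For C3ar1 the order was GL261, 005, CT2A, Mut3 and naïve brain, for Serping1 GL261, 005, CT2A, naïve brain and Mut3, and for C4b GL261, Mut3, 005, CT2A and naïve brain. Few neighbors in these orders passed the test of their difference, namely GL261 over Mut3 for C4b, CT2A over Mut3 for C3ar1 and C5ar1, and Mut3 over naïve brain for C3ar1.

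Myeloid transcripts moved with the C1q genes. Of the 6 myeloid markers, 5 were higher than in naïve brain in each of CT2A, GL261 and 005, and in Mut3 none was higher and 1 was lower. Their summed level was 183 to 263 CPM in naïve brain, 137 to 390 in Mut3, 684 to 937 in CT2A, 860 to 2866 in 005 and 1142 to 2083 in GL261. Relative to the mean log2 CPM of these markers in the same sample, C1qb stayed at 0.60 ± 0.29 (SD, n = 3) in naïve brain, 0.54 ± 0.33 in Mut3, 0.04 ± 0.22 in CT2A, 0.16 ± 0.12 in 005 and 0.23 ± 0.20 in GL261. C1qa had a relative level of −2.73 to −2.50 over the group means and C1qc one of 0.09 to 0.49. These narrow spans depended on the markers chosen. Relative to Ptprc alone, the marker of all leukocytes, the group means of C1qb ran from 1.09 in 005 to 3.82 in naïve brain. Those of C1qc ran from 1.25 to 3.71 and those of C1qa from −1.70 to 0.55. Ptprc was itself low in naïve brain, where C1qa, at 1.89 to 5.98 CPM, was 0 to 1.64 log2 units above it. With the other 5 markers C1qb ran from −0.26 to 0.11.

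C4b did not keep a constant distance from the myeloid genes. Its relative log2 level was −1.03 ± 0.85 in naïve brain, 1.12 ± 0.43 in Mut3, −0.05 ± 0.46 in GL261, −2.10 ± 0.97 in 005 and −2.14 ± 0.78 in CT2A, and the lowest Mut3 sample (0.63) was above the highest sample of any other group (0.48 in GL261). Relative to Ptprc alone, which was low in naïve brain, the groups overlapped, with the lowest Mut3 sample at 2.37 and the highest naïve brain at 3.33. The relative level of C3ar1 was −2.90 ± 0.29 in naïve brain and between −2.29 and −1.50 in the tumor means, and that of Cfb was −3.28 ± 0.31 in naïve brain and between −2.57 and −1.39 in the tumor means. The order for these genes also changed with the reference or the scale. Relative to Ptprc alone, C3ar1 was at 0.32 in naïve brain and between −1.36 and 0.55 in the tumor means, and Cfb was at −0.06 and between −0.59 and 0.11. On log2(TPM + 1) with the same 6 markers, C3ar1 was at −3.90 in naïve brain and between −4.68 and −3.18 in the tumor means. C3ar1 was at 0.163 to 0.228 TPM in naïve brain and 0.157 to 2.04 TPM in the tumors. A pseudocount of 1 flattens such low levels. C3 ranged within 005 from −2.38 to 0.39. These relative levels are descriptions, and the part of cell number in any fold change was not tested.

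**Figure D4:**
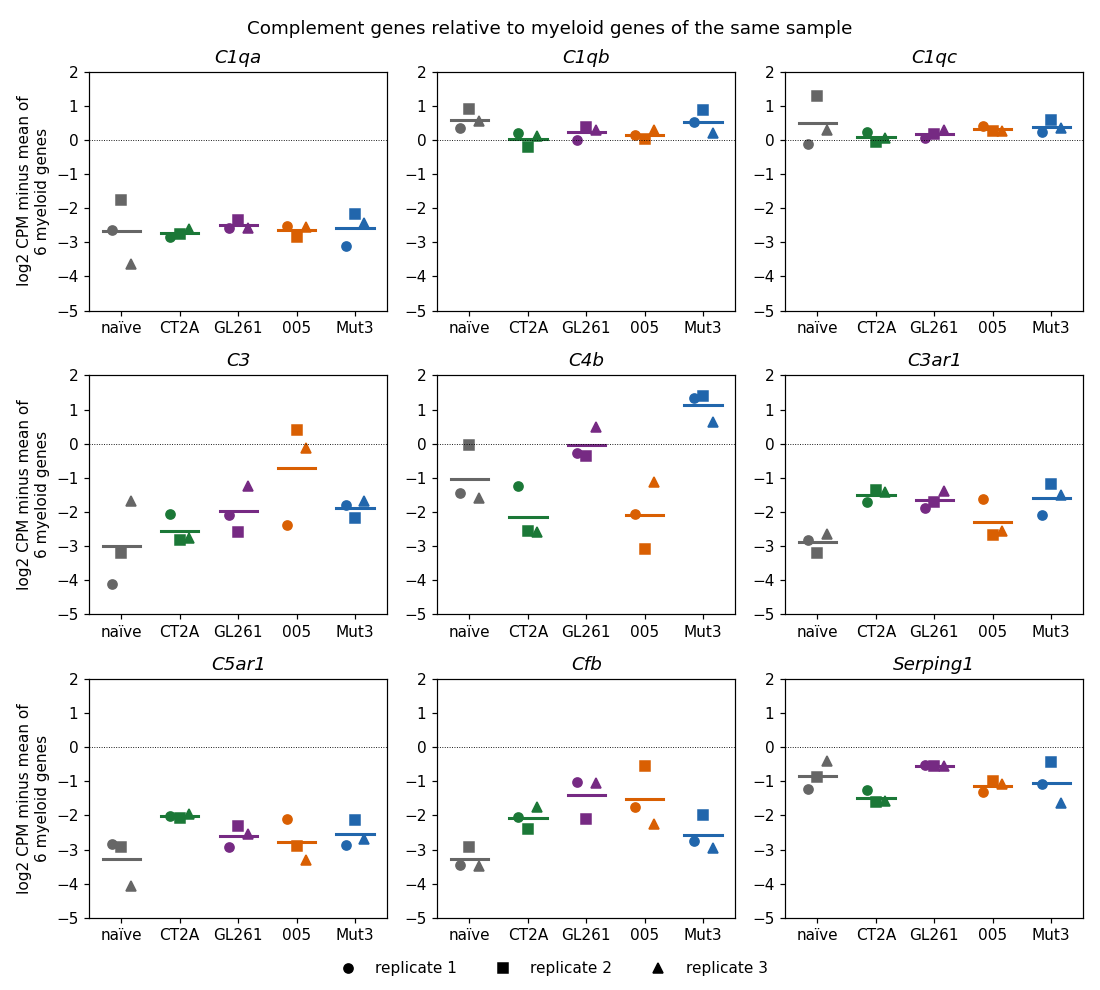
Log2 CPM of each gene minus the mean of 6 myeloid markers in the same sample, by group, with symbols for replicates and bars for means. C1qb and C1qc lie near 0 in all groups, while C4b lies highest in Mut3 (1.12) and lowest in CT2A (−2.14) and 005 (−2.10).

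Markers of other cells moved as well. The 7 microglia markers (P2ry12, Tmem119, Cx3cr1, Siglech, Gpr34, Olfml3 and Sall1) went 3 lower and none higher in CT2A and 5 lower and none higher in Mut3, with 1 higher in GL261 and none called in 005, and summed to 117 to 173 CPM in naïve brain against 42.0 to 50.8 CPM in Mut3. Of 6 monocyte and macrophage markers, 1 was higher in Mut3, 3 in CT2A, 4 in GL261 and 5 in 005. All 4 T cell markers tested were higher in CT2A, GL261 and 005 and none in Mut3, where they summed to 5.59 to 16.6 CPM against 2.86 to 5.41 CPM in naïve brain. Astrocyte markers, of cells that can express C4b, were lower for 3 of 5 and higher for 1 in Mut3 and lower for 2 of 5 in CT2A. In GL261 1 of 5 was higher and none lower, and in 005 none was called. Neuron markers were lower for 5 of 5 in both Mut3 and CT2A, and none was called in GL261 or 005. Of the other lists, neutrophil markers were higher for 0, 1, 2 and 1 of 4 in CT2A, GL261, 005 and Mut3, oligodendrocyte markers were lower for 2 and 3 of 4 in CT2A and Mut3, no endothelial marker was called, and 1 of 3 fibroblast markers was lower in Mut3. The part of these cells in the complement levels was not tested.

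The genes most like each member over the 15 samples were found by the root mean square difference of centered log2 CPM, a distance with 0 for identical patterns. C1qb and C1qc were each other's nearest among all tested genes (0.23). C1qa was nearest to Il10ra (0.32) and Itgb2 (0.35), and C5ar1 to Fcgr1 (0.33) and Fcer1g (0.40). Serping1 was nearest to C1qb (0.37), Tyrobp (0.38) and Aif1 (0.39), and C3ar1 to Bcl2a1b (0.40). C3 had no gene closer than Itgal (0.59), followed by Clec7a (0.60) and Cd3d (0.64). Cfb was nearest to AW112010 (0.47), Gbp8 (0.49) and Cd52 (0.53). C4b was nearest to Azgp1 (0.41), and the closest of the other members, C1qb, was at 1.22 and rank 2134 of 17480.

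A wider list of 42 complement genes, without the 9 members, had 23 that passed the filter. Over naïve brain, 9 were higher and 1 lower in GL261, where 14.6% and 7.77% of all tested genes were called higher and lower, and 6 were higher and none lower in 005, beside 11.6% and 1.05%. In CT2A 5 were higher and 5 lower, shares near the 19% and 20.2% of all tested genes, and in Mut3 none was higher and 9 were lower, beside 17.9% and 19.8%. Of the classical pathway, C2, C1s1 and C1ra rose in GL261. C2, which joins C4b in the C3 convertase, was at 2.45, 2.24 and 2.43 CPM in naïve brain and at 126, 41.9 and 66.2 CPM in GL261, a log2 fold change of 5.03 ± 0.52 (adjusted p = 6.6e-05), and at 2.71 to 8.33 CPM in the other tumors, where it did not pass. The protease C1s1 was at 0.541 to 2.24 CPM in naïve brain, about the level of 3 counts, at 15.4 to 49.3 CPM in GL261 and at 3.19 to 24.3 CPM in 005, and was called higher in both tumors. C1ra was at 0.747 to 2.65 CPM in naïve brain and was called higher at 7.43 to 29.6 CPM in GL261. Both proteases have close paralogs with which reads may be shared. The ratio of Cfb to its neighbor C2 in TPM was 1.85 to 2.13 in naïve brain, 1.43 to 1.81 in GL261 and 0.994 to 2.34 in Mut3, against 4.87 to 22.0 in CT2A and 7.28 to 54.6 in 005.

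Properdin (Cfp), which stabilizes the alternative convertase, rose from 0.408 to 1.25 CPM in naïve brain, about the level of 3 counts, to 4.97 to 14.3 CPM in CT2A, 1.78 to 13.1 CPM in GL261 and 9.06 to 88.9 CPM in 005. Neither of the 2 terminal components tested was called in any tumor. Among receptors, the integrin chains Itgb2 and Itgax of complement receptors 3 and 4 rose in CT2A (2.13 and 2.17), GL261 (3.02 and 3.90) and 005 (3.72 and 4.92) and did not pass in Mut3 (0.66 and 0.76). Itgam, the other chain of complement receptor 3, was higher in CT2A (1.36, edgeR adjusted p = 0.00759), GL261 (1.27, adjusted p = 0.0193) and 005 (1.74, adjusted p = 0.00536), and was lower in Mut3 (−1.56, adjusted p = 0.00384). Cr2, the receptor of B cells and follicular dendritic cells, was called higher in GL261 alone, at 1.45, 106 and 107 CPM from the lowest to the highest mouse, against 0.244 to 3.26 CPM in the other tumors and 0.249 to 0.408 CPM in naïve brain, which is under the level of 3 counts. Among the regulators, Vtn, Clu, Cd55, Cd59a, Susd4 and Csmd1 were lower in Mut3. Vtn (−2.15) and Clu (−1.87) were called lower in CT2A as well, and Vtn (−1.39) in GL261, beside −1.25 and −1.91 for Vtn and Clu in Mut3. Cd55, which dissolves the C3 convertases on the cell surface, was at 3.49 to 8.11 CPM in naïve brain and 0.112 to 0.440 CPM in Mut3, around the level of 3 counts there (adjusted p = 0.00211), and its log2 fold changes did not pass in CT2A (−0.69), GL261 (−0.79) or 005 (−0.54). Susd4 and Csmd1, both known as regulators of the brain, fell by 4.58 and 3.16 in Mut3 and by 3.25 and 2.77 in CT2A. Cr1l, a regulator of C3 and C4 cleavage in rodents, rose by 1.47 in CT2A, 2.48 in GL261 and 1.52 in 005.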

How the data were processed

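RNA of 15 samples, 3 mice in each of 5 groups, was grouped by the source names in the labels. The authors' alignment used STAR v2.4.2a and the mouse genome of GENCODE, with Picard tools for marking duplicates and RNA-SeQC for metrics. The submitters' processing notes also name Salmon, DESeq2 1.18.1 and mm10, and the annotation release is not given in the sources used here. The authors deposited estimated counts per gene, which are not normalized between samples, and TPM values, which are scaled to transcript length and to one total per sample. TPM and counts come from the same quantification and are not independent measurements. Of 46679 gene identifiers, 46201 matched GENCODE M21 on GRCm38, which gave symbols and positions.

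Whole numbers were made from the deposited estimated counts by rounding, and edgeR 4.0.16 in R 4.3.3 was applied to them with filterByExpr, TMM, and the quasi-likelihood test over all samples with a mean per group, in place of a test the study does not state. P-values were adjusted by Benjamini-Hochberg over 17481 genes in each of the 10 comparisons, genes under 0.05 with a log2 fold change of 1 or more in size were called, and standard errors were derived from the F statistic. Log2 CPM used a prior count of 2. Alternatives were DESeq2 1.42.0, library size scaling, other filters, limma 3.58.1 on log2(TPM + 1) and log2(TPM + 0.1), only the samples compared, the replicate number as a block, and leaving out each mouse. Leaving out mitochondrial genes and rescaling TPM by TMM were chosen after seeing the data. Longest transcripts were aligned with BLAST+ 2.17.0, and promoter sequences are from RefSeq, GRCm38.p6.

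The steps were tested on counts simulated for all 15 samples from a mean profile shared by all groups. Changes were put into the 3 GL261 samples and read against naïve brain, over 16886 genes. The steps called 1.61% of 62 genes changed by 1 on the log2 scale, 33.3% of 66 changed by 2 and 64.8% of 71 changed by 3. Of 73 calls, 4 were unchanged genes. In the data, 3913 of 17481 genes (22.4%) were called between GL261 and naïve brain. With far fewer changed genes, the Benjamini-Hochberg adjustment was stricter in the simulation, so its shares called need not hold for the data. Changes of complement genes can still be missed, at a rate that the simulation does not give. Depth was lowest in naïve brain. Limits at a count of 0 cover counting error only. Standard errors rest on a fit that estimates the spread between mice within groups. The labels do not say whether mice shared a litter or day.

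The genes named are the 9 members, from the wider list the 10 with the largest fold changes among those called and C2 and C4a for their overlap or likeness with members, and the 3 nearest genes to each member. Clu, Vtn, Cd59a, Cr1l and Itgam are named outside this rule, as other regulators and a receptor chain that were called, after their values were seen. Some genes, alleles and motifs are not reported here. The members, the lists and these rules were chosen with earlier results of these data known.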

Additional observations from a re-analysis of the deposited data

Results flagged for a closer look

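Of 54 tests of a complement gene between a pair of tumors, 23 passed. Each is a direct difference in level between the tumors of the pair, with no naïve brain in the contrast. Over all tested genes, the share called in either direction ran from 2.62% for GL261 and 005 to 19.8% for 005 and Mut3. GL261 over Mut3 gave log2 fold changes of 2.35 for C1qa, 2.04 for C1qb, 2.11 for C1qc, 1.24 for C4b, 2.20 for C3ar1, 2.30 for C5ar1, 3.71 for Cfb and 2.88 for Serping1. For 005 over Mut3 the values were 2.43 for C1qa, 2.24 for C1qb, 2.53 for C1qc, 4.53 for C3, 1.78 for C3ar1, 2.45 for C5ar1, 4.28 for Cfb and 2.64 for Serping1. CT2A against Mut3 differed in C4b (−1.64), C3ar1 (1.58) and C5ar1 (2.10). CT2A against GL261 differed in C4b (−2.88) and Serping1 (−1.78), CT2A against 005 in C3 (−3.70), and GL261 against 005 in C4b (1.96). Of the 9 genes, C4b was the one whose difference between CT2A and Mut3 passed with the higher level in Mut3. The myeloid markers, whose summed level was 137 to 390 CPM in Mut3 and 860 to 2866 CPM in 005, moved with the contrasts to Mut3 for genes other than C4b, and their part was not tested.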

How the results depend on the processing

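The counts of complement genes called were recomputed under each alternative. Leaving out a single mouse gave counts of 3 to 7 in CT2A, 8 to 9 in GL261, 8 to 9 in 005 and 1 to 2 in Mut3 against naïve brain. In either direction, 25.2% to 36.7%, 10.7% to 16.8%, 5.49% to 35.7% and 30% to 32.9% of all tested genes were then called, in that order. Between tumors the counts were 1 for CT2A and GL261 in every case, 0 to 5 for CT2A and 005, 0 to 3 for CT2A and Mut3, 0 to 1 for GL261 and 005, 7 to 8 for GL261 and Mut3 and 7 to 8 for 005 and Mut3. The shares of all tested genes there were 3.26% to 5.86%, 0.996% to 4.32%, 7.35% to 9.51%, 1.04% to 5.86%, 7.83% to 12.1% and 9.62% to 18.7%. DESeq2 called 3 for CT2A and 005 and 6 for CT2A and Mut3, and without a filter on low counts 2 were called for CT2A and 005. In these pairs DESeq2 called 10.1% and 16.1% of all tested genes, against 4.11% and 12.8% in the main edgeR test. A minimum of 10 counts in every sample left 4 genes to test and called 2 in CT2A, 4 in GL261, 4 in 005, 1 in Mut3, 0 for CT2A and 005, 1 for CT2A and Mut3, 4 for GL261 and Mut3, 3 for 005 and Mut3, and 4 in the F test. With only the samples compared, 2 were called in 005, 4 for CT2A and GL261, 0 for CT2A and 005, 7 for CT2A and Mut3, 0 for GL261 and 005, and 5 for 005 and Mut3. Of all tested genes, 1.48%, 15.8%, 0.71%, 20.1%, 0.955% and 5.88% were called there, against 12.7%, 7.77%, 4.11%, 12.8%, 2.62% and 19.8% in the main test. On log2(TPM + 1) the counts were 1 in CT2A, 7 in 005, 1 in Mut3, 2 for CT2A and 005, 1 for CT2A and Mut3, 0 for GL261 and 005, 6 for GL261 and Mut3 and 7 for 005 and Mut3. On log2(TPM + 0.1) they were 3 in CT2A, 8 in 005, 1 in Mut3, 2 for CT2A and Mut3, 0 for GL261 and 005 and 7 for GL261 and Mut3. After rescaling TPM by TMM they were 1 in Mut3, 0 for CT2A and 005, 2 for CT2A and Mut3 and 7 for 005 and Mut3. The other counts on the TPM scales equaled those of the test on counts. Except for the minimum of 10 counts, which left fewer genes, the cause was not tested.

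With the replicate number as a block, the count for CT2A and 005 went from 1 to 0, and the share of all tested genes called from 4.11% to 2.25%. Samples with the same number did not deviate together on average (mean r −0.038 to −0.032, single pairs −0.331 to 0.262). Of 15 samples, 3 correlated best with their own number, so no pairing by number was seen. Shared handling of the mice was not tested. The block turned Serping1 in Mut3 to −0.088 and C1qa between GL261 and 005 to 0.054, neither of which passed.

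All reversed fold changes were of values that did not pass. On log2(TPM + 1) and log2(TPM + 0.1), C4b in CT2A was at −0.28 and −0.30, and in Mut3 C1qa was at −0.37 and −0.48, C1qb at −0.66 and −0.69, C1qc at −0.70 and −0.73 and Serping1 at −0.63 and −0.83. Serping1 in Mut3 was at −0.019 with at least 10 counts and −0.013 with only the samples compared, and after rescaling TPM C1qa and Cfb between GL261 and 005 were at 0.023 and 0.014. Without single mice, in Mut3 C1qc ranged from −0.17 to 0.60, C1qa from −0.023 to 0.90 and Serping1 from −0.37 to 0.30. Likewise CT2A over 005 ranged from −0.49 to 0.20 for C3ar1 and from −0.71 to 0.23 for C5ar1. GL261 over 005 ranged from −0.33 to 0.51 for C1qa, −0.45 to 0.47 for C1qb, −0.72 to 0.30 for C1qc, −0.55 to 0.43 for C5ar1, −1.06 to 1.21 for Cfb and −0.074 to 1.14 for Serping1, in each case with the upper value on leaving out 005 replicate 2.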
